A study of Mus musculus with 4 samples.

Results

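The machinery that assembles antigen receptor genes was examined in sorted CD4+CD8+ double-positive thymocytes of C57BL/6 mice, the immature T cells in which the T cell receptor alpha locus is rearranged. It was taken as 10 genes: the recombinase genes Rag1 and Rag2, the nucleotide-adding polymerase gene Dntt, and the end-joining genes Xrcc5, Xrcc6, Prkdc, Dclre1c, Xrcc4, Lig4 and Nhej1. A probe set, the unit that reads a stretch of a transcript on the array, was included where 1 of these symbols was its only gene name in the platform annotation. This gave 12 of 45037 probe sets and 9 of the 10 genes, since Dclre1c had no such probe set and is not analysed here. The study set 2 arrays labelled WT against 2 arrays labelled hCD2-iCre x Gfi1fl/fl. In the latter, regulatory sequences of the human CD2 gene drive the recombinase iCre, and the Gfi1 gene, which encodes a transcriptional repressor of blood cells, is flanked by recombinase sites. Such a transgene is active in T and B lineage cells from early stages. The labels give no age or sex, do not describe the WT mice as carrying the recombinase, and leave unsaid whether the replicates came from different animals. The p-values therefore reflect the spread of these 4 samples, which may be technical. Values were normalised log2 signals, on which 1 unit is a 2-fold difference in signal.

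V(D)J recombination joins variable, diversity and joining segments into 1 exon. RAG1 and RAG2 cut beside a pair of segments and leave hairpin-sealed coding ends. Ku (XRCC5 and XRCC6) binds the broken ends and recruits the kinase DNA-PKcs, encoded by Prkdc, and Artemis, encoded by Dclre1c, opens the hairpins. Terminal deoxynucleotidyl transferase, encoded by Dntt, adds untemplated nucleotides, and XRCC4, DNA ligase IV and XLF (encoded by Nhej1) complete the joint. In the thymus the recombinase is made in 2 waves, of which the second falls in the double-positive stage.

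On the arrays labelled hCD2-iCre x Gfi1fl/fl the recombinase genes lay close to their wild-type signal, Dntt fell 1.61-fold, and no end-joining gene passed the test. Of 9 measured genes, 1 was called at an adjusted p of 0.05 (limma, Benjamini-Hochberg over 17097 genes), where 1.11% of all genes were called. That gene was Dntt, which was lower, as were 0.170% of all genes, while 0.942% were called higher. Of the 8 others, 0 had an unadjusted p under 0.05, beside 8.29% of all genes. The groups did not overlap for 3 of 9 genes, against 34.5% of all genes, so this count stands near the background. Differences lay below 0 for 6 genes and above 0 for 3, with a median of -0.19 beside -0.02 over all genes. That median was -0.04 without hCD2-iCre x Gfi1fl/fl replicate 2, -0.34 without replicate 1 of that label and -0.11 without wild-type replicate 1. The sign of the difference changed for 5 of the 9 genes (Rag1, Xrcc5, Lig4, Prkdc and Nhej1) when 1 of the arrays was left out.

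**Figure D1:**
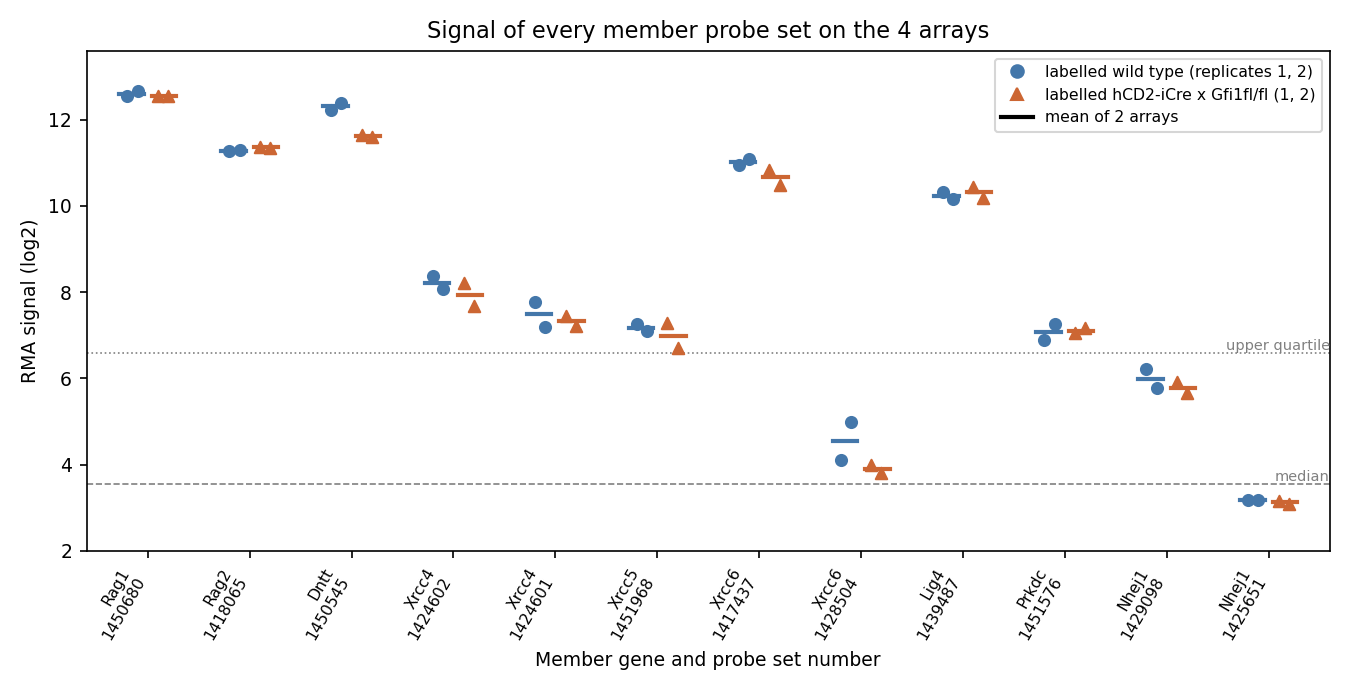
Normalised log2 signal (vertical axis) of the 12 probe sets (horizontal axis) on the 2 arrays labelled WT (circles) and the 2 labelled hCD2-iCre x Gfi1fl/fl (triangles), with bars at the mean of 2 arrays; the dashed and dotted lines mark the highest array median, 3.55, and the highest array upper quartile, 6.59. The Dntt arrays stand apart by label (12.23 and 12.39 against 11.65 and 11.60), while those of Rag1 lie together.

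The recombinase genes come first in the reaction. They are neighbours that face each other on opposite strands and are regulated together in lymphocytes. The 300 bases around the starts of Rag1 and Rag2, and of Dntt, are shown because Dntt fell while its partners of the same stage did not pass the test. They run from 250 bases before to 50 bases after the start, 5′ to 3′ on the gene's strand, from RefSeq's assembly GRCm38.p6, and capitals mark AATC or its reverse complement GATT, the core letters of the motif that Gfi1 binds.
Rag1, chr2:101649483-101649782, minus strand: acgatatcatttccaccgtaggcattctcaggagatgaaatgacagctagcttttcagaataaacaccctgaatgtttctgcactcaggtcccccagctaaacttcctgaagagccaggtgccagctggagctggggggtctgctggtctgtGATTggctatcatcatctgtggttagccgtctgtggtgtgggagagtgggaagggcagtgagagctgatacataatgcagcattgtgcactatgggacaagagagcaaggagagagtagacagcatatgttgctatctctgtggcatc
Rag2, chr2:101624462-101624761, plus strand: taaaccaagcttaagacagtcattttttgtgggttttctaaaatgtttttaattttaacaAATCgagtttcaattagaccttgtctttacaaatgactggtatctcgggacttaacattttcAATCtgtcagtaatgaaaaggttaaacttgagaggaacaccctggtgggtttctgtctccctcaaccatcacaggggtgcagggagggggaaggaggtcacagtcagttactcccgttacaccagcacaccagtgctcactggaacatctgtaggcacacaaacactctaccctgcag
Dntt, chr19:41029025-41029324, plus strand: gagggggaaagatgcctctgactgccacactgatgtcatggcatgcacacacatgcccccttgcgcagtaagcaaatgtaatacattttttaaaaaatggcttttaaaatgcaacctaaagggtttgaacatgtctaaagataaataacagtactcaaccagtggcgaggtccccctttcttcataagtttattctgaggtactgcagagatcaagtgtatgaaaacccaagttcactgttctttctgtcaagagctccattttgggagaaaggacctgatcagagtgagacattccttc

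AATC was searched on both strands, and it occurred 1 time in the Rag1 window, 2 times in the Rag2 window and 0 times in the Dntt window. Of 32841 promoter windows of this length, 73.1% held it. The E box CANNTG, the letters bound by E proteins, occurred 4, 2 and 3 times in the same order, and 72.3% of windows held it. The forkhead core AAACA or its reverse complement occurred 2, 2 and 0 times, with 50.5% of windows holding it. The motif matches are a description of these letters, none of which is rare, and no match of 1 motif overlapped a match of another in these 3 windows. Promoter windows were found for 9 of the 10 genes, all but Prkdc. The windows of Xrcc5 and Lig4 also held AATC 0 times, and those of Xrcc4, Xrcc5, Xrcc6, Lig4 and Nhej1 held AAACA 0 times. None of these genes was called, so lacking these letters is not particular to Dntt.

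Rag1 encodes the catalytic subunit of the recombinase. Its probe set, 1450680_PM_at, gave 12.54 and 12.66 on the wild-type arrays and 12.54 and 12.55 on the arrays labelled hCD2-iCre x Gfi1fl/fl. The groups overlapped. The difference was -0.05 with a 95% interval of -0.27 to 0.17 (limma, adjusted p = 1.00), so the interval holds signal ratios between 0.827 and 1.13.

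Rag2 encodes the partner that binds chromatin through a plant homeodomain finger. It was read by 1418065_PM_at, with 11.27 and 11.30 on the wild-type arrays and 11.37 and 11.35 on the other arrays. Both latter arrays were higher, by at most 0.10 for any pair of arrays. The difference of 0.08 had an interval of -0.20 to 0.35 (limma, adjusted p = 1.00).

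Dntt encodes terminal transferase, the source of most junctional diversity in receptors made after birth. Its probe set, 1450545_PM_a_at, gave 12.23 and 12.39 on the wild-type arrays and 11.65 and 11.60 on the arrays labelled hCD2-iCre x Gfi1fl/fl. Every array of the latter label was lower than every wild-type array, by 0.58 to 0.80. The means were 12.31 ± 0.12 and 11.62 ± 0.03 (SD, n = 2 each), and the difference was -0.69 ± 0.11 (SE), with a 95% interval of -0.95 to -0.43 (limma, adjusted p = 0.0413). Among the 29 genes called lower over the whole array, this was the smallest change, beside a median of -1.94 and a largest change of -3.81. The difference was -0.77 without wild-type replicate 1 and -0.61 without wild-type replicate 2. It was -0.71 without hCD2-iCre x Gfi1fl/fl replicate 1 and -0.67 without replicate 2 of that label. The call did not hold in every one of these fits. Each sets 1 array against 2, so they cannot show which arrays the call rests on. With all 4 arrays, the call was lost without the intensity trend in the prior variance (limma, adjusted p = 0.149). It was also lost with all probe sets of each gene averaged (limma, adjusted p = 0.0815). The lowest adjusted p of any alternative, 0.00265 (limma), came from the fit with a cell cycle covariate.

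**Figure D2:**
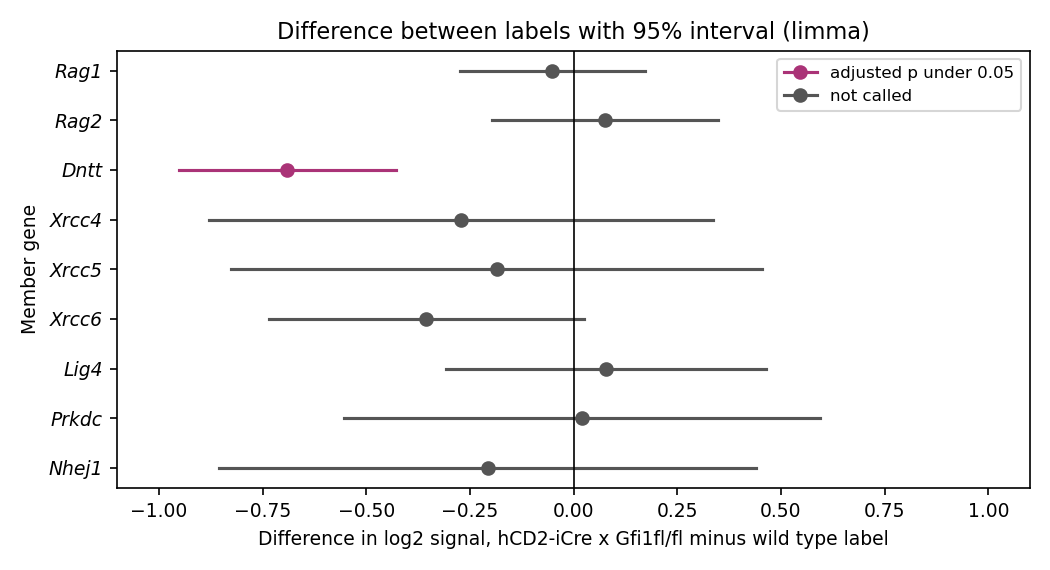
Difference in log2 signal between the labels (horizontal axis, hCD2-iCre x Gfi1fl/fl minus wild type) for the 9 measured genes (vertical axis), with points at the estimate and lines for the unadjusted 95% interval of limma. The Dntt interval, -0.95 to -0.43, lies below 0, and the other 8 include 0.

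The Ku genes act next, at the broken ends. Xrcc6, which encodes Ku70, was read by 1417437_PM_at with 10.95 and 11.10 on the wild-type arrays and 10.84 and 10.50 on the others. Both of the latter were lower, by 0.11 to 0.60. The difference was -0.36, with an interval of -0.73 to 0.02, and it did not pass the test (limma, adjusted p = 0.650). A dimmer Xrcc6 probe set, 1428504_PM_at, gave 4.10 and 4.997 against 4.003 and 3.81, again without overlap and without a call (-0.64, adjusted p = 0.723 in the limma fit of all 45037 probe sets). Its difference was -1.09 without wild-type replicate 1 and -0.20 without wild-type replicate 2. The main Xrcc6 difference was -0.18 without hCD2-iCre x Gfi1fl/fl replicate 2 and -0.53 without replicate 1 of that label (adjusted p = 0.984 and 0.208).

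Xrcc5, which encodes Ku80, the partner of Ku70 in the ring, was read by 1451968_PM_at with 7.26 and 7.10 on the wild-type arrays and 7.28 and 6.71 on the others. Replicate 1 of the second label was the highest of the 4 arrays and replicate 2 the lowest. The difference was -0.19, with an interval of -0.82 to 0.45 (limma, adjusted p = 1.00).

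Prkdc encodes the DNA-dependent protein kinase whose loss causes severe combined immunodeficiency in mice. Its probe set, 1451576_PM_at, gave 6.90 and 7.27 on the wild-type arrays and 7.05 and 7.16 on the others. The latter 2 lay between the former 2. The difference was 0.02, with an interval of -0.55 to 0.59 (limma, adjusted p = 1.00).

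The ligation genes follow. Lig4, the ligase that seals the joint, was read by 1439487_PM_at with 10.32 and 10.16 on the wild-type arrays and 10.45 and 10.18 on the others. These groups overlapped, with a difference of 0.08 and an interval of -0.31 to 0.46 (limma, adjusted p = 1.00). Xrcc4, the scaffold of the ligase, had 2 probe sets. The brighter one, 1424602_PM_s_at, gave 8.37 and 8.07 against 8.21 and 7.68, and 1424601_PM_at gave 7.78 and 7.19 against 7.44 and 7.22. Both overlapped between the labels, with differences of -0.27 and -0.15. Neither passed the test (limma, adjusted p = 0.949 in the gene fit and 0.999 in the fit of all probe sets).

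Nhej1, which encodes XLF, a filament-forming partner of XRCC4, was read by 1429098_PM_s_at with 6.22 and 5.77 on the wild-type arrays and 5.92 and 5.66 on the others. The ranges overlapped, and the difference was -0.21, with an interval of -0.85 to 0.44 (limma, adjusted p = 0.993). The second Nhej1 probe set, 1425651_PM_at, lay below the median of all probe sets on all 4 arrays, at 3.17 and 3.17 against 3.16 and 3.10, where a fall was not detectable.

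Over the 12 probe sets fitted with all 45037, only that of Dntt was called (limma, adjusted p = 0.0381), where 0.766% of all probe sets were called and 0.102% were called lower, and 5 of 12 had groups that did not overlap, against 34.7% of all. For the 8 uncalled genes the intervals reached from -0.88 to 0.59. The lowest of these limits, that of Xrcc4, is a fall of 1.84-fold. These limits hold for the brightest probe set of each gene. The dimmer Xrcc6 probe set, 1428504_PM_at, had a wider interval in the fit of all probe sets, -1.37 to 0.08. The probe sets of Rag1 and Dntt lay above 99.4% of all probe sets by mean signal, a range in which array signals can be compressed.

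Arrays of 1 label also differed from each other, and the members followed different orders. Between the 2 arrays labelled hCD2-iCre x Gfi1fl/fl, Rag1, Rag2 and Dntt differed by 0.01, -0.01 and -0.05 (replicate 2 minus 1). Of 6 measured end-joining genes, 5 were lower on replicate 2, from -0.56 for Xrcc5 and -0.54 for Xrcc4 to -0.26 for Nhej1, where 56.6% of all genes were lower. Of the same 6 genes, 4 were lower on replicate 2 of the wild-type label, where 58.1% of all genes were lower. Of 17 measured double-positive markers, 3 were higher on replicate 2 of the hCD2-iCre x Gfi1fl/fl label, with a median of -0.26, and 11 on replicate 2 of the wild-type label. Between the arrays labelled hCD2-iCre x Gfi1fl/fl, all 27 measured cell cycle genes were higher on replicate 2, with a median of 1.51. Their mean was 7.97 and 9.55 on these arrays and 8.73 and 9.05 on the wild-type arrays. The wild-type pair differed by -0.45 for Nhej1, -0.30 for Xrcc4, -0.17 for Xrcc5, -0.16 for Lig4, 0.15 for Xrcc6 and 0.36 for Prkdc. For Xrcc4, Xrcc5 and Nhej1 the difference between the labels was thus no larger than a difference within a label. A difference of 2-array means varies less than one of single arrays, so this is not particular to these genes. Over all genes the median absolute difference was 0.11 between the labels and 0.16 within either label. With the cell cycle mean as a covariate, chosen after seeing the data, Dntt differed by -0.69 and stayed the 1 gene called of 9. This covariate was averaged from the same 4 arrays, and the fit called 581 of all genes where the main fit called 190. With so few arrays, the kept call cannot decide the part of the cell cycle. The part of the cell cycle difference in the other members' values was not tested beyond that fit.

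**Figure D3:**
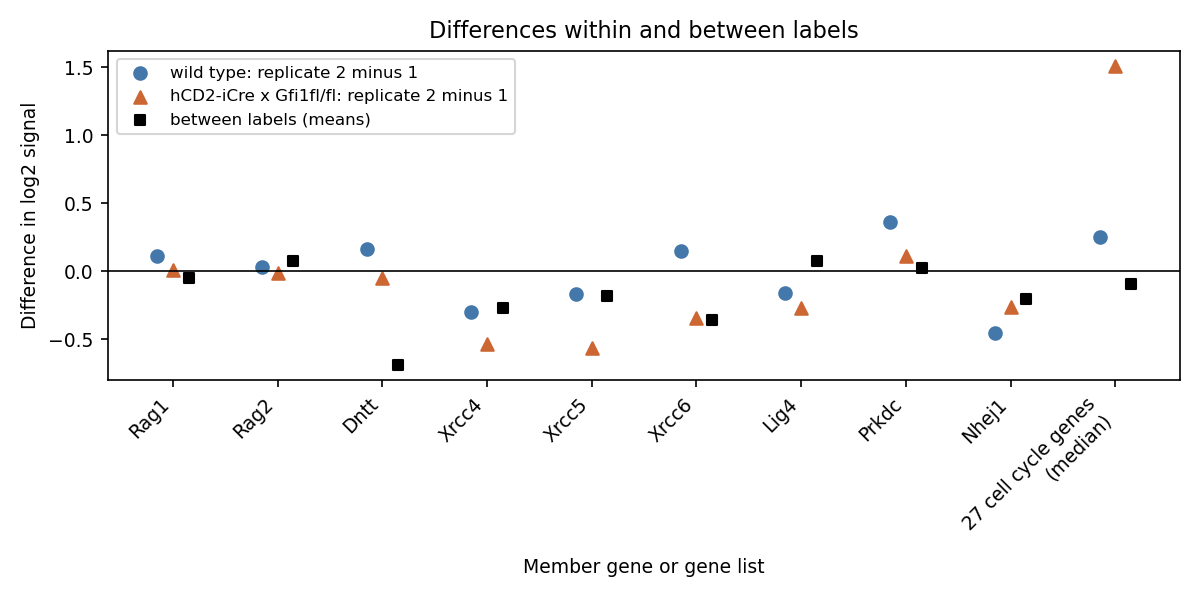
Differences in log2 signal (vertical axis) within the wild-type label (circles, replicate 2 minus 1), within the hCD2-iCre x Gfi1fl/fl label (triangles, replicate 2 minus 1) and between the label means (squares) for the 9 measured genes and the median of 27 cell cycle genes (horizontal axis). Of the 9 genes, Dntt has the largest difference between labels (-0.69), beside 0.16 and -0.05 within labels. For Rag2 (0.08 against 0.03 and -0.01) and Xrcc6 (-0.36 against 0.15 and -0.34) the difference between labels is also the larger in size. The cell cycle median is 1.51 within the second label.

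Other genes of the pathway were taken as lists by their roles. None of 13 measured genes of end processing and alternative joining was called, and 0 had an unadjusted p under 0.05 (limma). The largest differences were 0.39 for Parp1, a sensor of strand breaks, and -0.34 for Tdp1, which removes trapped topoisomerase from ends (adjusted p = 0.808 and 0.942). The list's median was -0.02. Among 13 measured genes of break sensing and signalling, 0 were called and 1 had an unadjusted p under 0.05. That was Atm, the kinase that signals double-strand breaks, which gave 7.12 and 7.42 against 8.03 and 8.23 (0.86, limma, adjusted p = 0.220). All wild-type arrays were lower for Atm. Shld1, a shieldin subunit that limits end resection, differed by -0.91 (adjusted p = 0.717). The median of this list was 0.004, and it held 1 called gene without hCD2-iCre x Gfi1fl/fl replicate 1.

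The 9 measured cofactors and turnover factors of RAG, such as Hmgb1 and Hmgb2, whose proteins bend DNA at the recombination signal, included 0 called genes and 0 at an unadjusted p under 0.05 (limma). Their largest differences were -0.34 for Cdk2, a kinase that marks RAG2 for destruction at S phase entry, and -0.22 for Hmgb2 (adjusted p = 0.946 and 1.00), with a median of -0.04. The list held 1 called gene without hCD2-iCre x Gfi1fl/fl replicate 1 and 2 without replicate 2. Of 17 measured factors of receptor locus opening and Rag transcription, 1 was called higher, where 0.942% of all genes were. It was Id2, an inhibitor of the E proteins that activate Rag and receptor loci, with 7.41 and 6.73 on the wild-type arrays and 8.97 and 8.66 on the others. Id2 was higher on both latter arrays (1.74, limma, adjusted p = 0.0429). That call was lost without wild-type replicate 2 and without the intensity trend. The median of the list was 0.004, and 3 of the 17 had an unadjusted p under 0.05 (limma), beside 8.29% of all genes. Besides Id2 these were Gata3 (0.56) and Rora (0.47), neither of which was called. The groups did not overlap for 8 of the 17, against 34.5% of all genes.

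**Figure D4:**
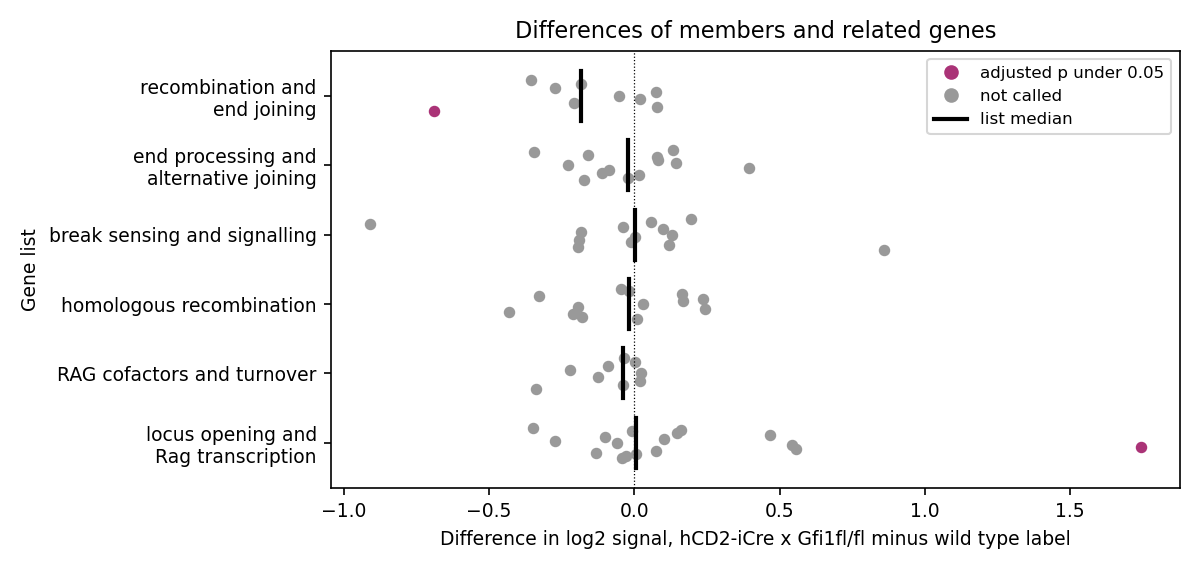
Difference in log2 signal (horizontal axis, hCD2-iCre x Gfi1fl/fl minus wild type) of the 9 measured members and of 5 lists of related genes (vertical axis), 1 point per gene, coloured where the adjusted p is under 0.05, with a bar at each median. The coloured points are Dntt at -0.69 and Id2 at 1.74, and the medians of the lists lie between -0.04 and 0.004 beside -0.19 for the members. Marker lists are not drawn, and the median of the double-positive markers was -0.14.

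The targeted gene and the markers of the sorted cells bear on how the labels are read. The 1 named probe set of Gfi1 was higher on both arrays labelled hCD2-iCre x Gfi1fl/fl (1.27 ± 0.14, SE; limma, adjusted p = 0.00781), and its place relative to the floxed part is not given in the sources used here, so each direction is one between labels. Of 17 measured double-positive markers, 16 lay above the upper quartile on all 4 arrays, Cd4, Cd8a and Cd8b1 among them, and 0 were called. An unadjusted p under 0.05 (limma) was found for 5 of the 17, beside 8.29% of all genes. The groups did not overlap for 9 of the 17, against 34.5% of all genes. The markers' median difference was -0.14, with 5 of the 17 above 0. It was -0.19 for the recombination and end-joining genes and -0.02 over all genes. The largest differences were 1.19 for Tcra and -0.68 for Ets2 (adjusted p = 0.419 and 0.0528), and 1 marker was called when either array labelled hCD2-iCre x Gfi1fl/fl was left out.

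Genes of other stages and cells moved beside the fall of Dntt. Of 7 measured single-positive markers, 4 rose (Klf2 by 5.20, Itgb7 by 2.92, H2-K1 by 2.03 and S1pr1 by 1.43), where 0.942% of all genes were called higher. Runx3, Cd69 and Zbtb7b differed by 1.28, 0.13 and 0.04 and were not called, and Zbtb7b lay below the median on all 4 arrays. The mean of the list was 5.83 and 5.60 on the wild-type arrays and 7.48 and 7.68 on the others. Of 11 double-negative and progenitor markers, 1 was called (Cd44, lower by 3.16), where 0.170% of all genes were called lower. Most of this list went the other way, with 8 of 11 above 0 and a median of 0.19. Dtx1 differed by 1.02 and Notch3 by 0.84, neither called. An unadjusted p under 0.05 (limma) was found for 5 of the 11, beside 8.29% of all genes, and 5 lay below the median on all 4 arrays. The list means were 4.80 and 4.62 against 4.56 and 4.82. Of 8 gamma-delta T and innate lymphoid markers 2 rose, Il18r1 by 7.60 and Cd163l1 by 7.45, and the list means were 3.81 and 3.88 against 5.96 and 5.75. The median of that list was 0.08, and 3 of its 8 genes had an unadjusted p under 0.05 (limma), beside 8.29% of all genes. Blk was the third, higher by 1.24 without overlap but not called (limma, adjusted p = 0.205). Klrb1c, Sox13, Ncr1, Zbtb16 and Il17re differed by 0.13, -0.05, -0.04, 0.03 and -0.28. B cell precursors also express Rag and Dntt. Of 8 B cell markers 0 were called (2 at an unadjusted p under 0.05, limma), and 5 lay below the median on all 4 arrays. Pax5 and Ebf1, which define the lineage, gave between 2.82 and 3.06, while Cd79b differed by -1.23 and Vpreb1 by -1.15 (adjusted p = 0.347 and 0.223), and 2 were called without hCD2-iCre x Gfi1fl/fl replicate 1. The means of the list were 4.16 and 4.003 against 3.94 and 3.68. The part of these lists in the Dntt difference was not tested, and in a bulk sample fewer cells that express Dntt and less Dntt RNA per cell cannot be told apart.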

How the data were processed

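RNA of flow-sorted cells was labelled with biotin and hybridised to Affymetrix 3' arrays, 1 array per sample, per the labels' protocols. The authors deposited log2 RMA signals per probe set, with RMA and Affymetrix Expression Console 1.1 named in the submitters' processing notes. The log2 scale was read from the values (2.19 to 13.5, array medians 3.53 to 3.55), which were used without further scaling. Differences in array signal can be compressed at both ends of the range, which was not tested here. The files held no detection calls, and precision is limited by 2 arrays per label.

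Of 45037 probe sets, 28898 had exactly 1 gene symbol in the platform annotation, naming 17097 genes. Each gene was represented by its brightest probe set by mean over the 4 arrays. The labels were compared with lmFit and eBayes (limma 3.58.1, R 4.3.3) with an intensity trend and no covariate, two-sided, and a second fit took all 45037 probe sets. Both fits were checked on simulated data. Replicate numbers did not pair samples in the labels. The members and lists were chosen with earlier results of these data known. Named were all members, up to 4 called genes per list and otherwise the 2 with the largest difference. Further list genes, among them Sox13, Blk, Pax5, Gata3, Runx3 and Hmgb1, were named outside this rule with the results known. Alternatives were a replicate block, other scalings, filters, priors, averaged probe sets, each array left out and, chosen after seeing the data, a cell cycle covariate. Figures used matplotlib 3.10.9.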

Additional observations from a re-analysis of the deposited data

How the results depend on the processing

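The direction of the Dntt difference held under every alternative run, from -0.77 to -0.61, and no other member gene or probe set was called under any of them. The difference of Dntt kept its size of -0.69 but lost its call without the intensity trend and with averaged probe sets (0 member genes called instead of 1). In the fit of all probe sets, Dntt (-0.69) lost its call without the trend, with a robust prior and with the replicate block (adjusted p = 0.177, 0.0671 and 0.0529, 0 probe sets called). In the gene fit with the replicate block the call of Dntt held (adjusted p = 0.0444). Leaving out 1 array gave between 0 and 1 member genes and between 0 and 1 member probe sets called, with Dntt between -0.77 and -0.61 in both fits. The cause was not tested, except that such fits set 1 array against 2.

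Deviations of same-numbered arrays correlated at 0.30 over 17097 genes, with only 2 numbers. Over all genes, 190 were called, and between 103 and 475 when 1 array was left out and 581 with the cell cycle covariate. For the double-positive markers, 1 gene instead of 0 was called with the replicate block, centring on medians, repeated quantile normalization, either filter on dim probe sets and the cell cycle covariate. The covariate also called 2 B cell markers, 1 break sensing gene and 1 thymic epithelial marker, and the replicate block 1 thymic epithelial marker. Without the trend 0 instead of 1 of the locus opening factors was called. With 1 array left out, counts ran from 0 to 2 for B cell markers and RAG cofactors, 0 to 1 for break sensing, homologous recombination, double-positive, thymic epithelial and locus opening genes, 0 to 12 for cell cycle genes and 1 to 3 for double-negative markers.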

Other observations

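Over all genes, the median absolute difference was 0.16 within the hCD2-iCre x Gfi1fl/fl label and 0.11 between the labels. Genes of homologous recombination, another route of double-strand break repair, also differed more within that label than between the labels. Of 13 measured members, 0 were called between the labels (limma, 0 at an unadjusted p under 0.05), with a median of -0.02 and the largest differences in Brca2 (-0.43) and Rad52 (-0.33). Brca1, which directs ends towards recombination, gave 6.12 on replicate 1 and 7.96 on replicate 2 of that label and 7.21 and 7.29 on the wild-type arrays. In all, 11 of the 13 were higher on replicate 2, with a median of 0.83, where 43.2% of all genes were higher, and the list's mean was 5.02 and 5.91. On the wild-type pair, 9 of the 13 were higher on replicate 2, with a median of 0.13, where 41.7% of all genes were higher. Of the end-joining genes, 5 of 6 were lower on replicate 2 of the hCD2-iCre x Gfi1fl/fl label, and all 27 cell cycle genes were higher on it, with a median of 1.51. These values describe 2 arrays and carry no test. Brca1 was chosen after its values were seen.

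Myeloid and dendritic markers (9 measured) and thymic epithelial and stromal markers (10 measured) held 0 called genes (0 and 2 at an unadjusted p under 0.05, limma). The largest differences were 0.51 for Lyz2 and -0.22 for Itgam, and 1.68 for Epcam and -0.30 for Krt8. Among the 27 cell cycle genes 0 were called (0 at an unadjusted p under 0.05), with 0.79 for Ccne1 and -0.74 for Tk1. Without hCD2-iCre x Gfi1fl/fl replicate 1, 2 cell cycle genes and 1 gene of homologous recombination were called. Without replicate 2 of that label, 12 cell cycle genes and 1 thymic epithelial marker were called.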
